A study of Mus musculus with 9 samples.

Results

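The cells described are CD8 single-positive (CD8SP) thymocytes of mice that carried the OT-I T cell receptor transgene, sorted from 1 group labelled Brd1 conditional knockout (CKO; Brd1flox/flox, Tie2-Cre, OT-I) and 1 group labelled control (Brd1+/+, Tie2-Cre, OT-I). Both groups were of the strain C57BL/6 and 14 weeks old, and both carried Tie2-Cre, a recombinase driven by a promoter active in endothelial and blood-forming cells, so that a floxed gene can be deleted before a cell becomes a thymocyte. The labels spell the transgene with a lower-case l and do not say how many mice gave the cells. Each group was measured on 1 array, and the pair made up 2 of the 9 arrays of the series, both on the same slide. The other 7 arrays held CKO and control CD8SP, CD4SP and double-positive (DP) thymocytes and TCRβ-negative CD4SP cells of the CKO, all from mice of 8 weeks that carried Tie2-Cre without OT-I. The arrays measured total RNA with 1 colour on an Agilent mouse design. A gene entered the comparison of the pair if it was well above background on at least 1 of its 2 arrays. That left 18623 genes and unnamed transcripts of the 37079 on the array, 11590 of them with a gene symbol.

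Brd1 is a bromodomain protein that serves as a scaffold of histone acetyltransferase complexes, mainly with the catalytic subunit Kat7, which acetylate histone H3. Thymocytes pass from double-negative through cycling immature stages to DP cells, which rearrange the T cell receptor alpha locus with the recombinases Rag1 and Rag2 and are then selected on their receptor. Cells selected on MHC class I become CD8SP cells, which express Il7r, Klf2, S1pr1 and Ccr7 as they mature and leave the thymus as resting cells. OT-I is a rearranged receptor that recognises an ovalbumin peptide on MHC class I, so it directs thymocytes to the CD8 lineage. The transgene is present early in development, and the CD8 gate also admits immature single-positive cells, which cycle, carry Ptcra and Cd24a and precede the DP stage. The label of these 2 arrays names CD8SP cells with no statement on their TCRβ level.

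Levels are log2 signals relative to the 75th percentile of the same array, and a difference is the CKO level minus the control level on this log2 scale, so that 1 is 2-fold. Where a gene was not well above background on 1 array of a pair, the difference is a bound against the lowest signal measured well above background there, and the fold is given as at least that size. With 1 array per genotype there was no replicate error to set a difference against, so no p-value is given within the pair. The spread between spots of the same probe, a technical error alone, had a median SD of 0.0724 on the CKO array and 0.0726 on the control array. On the CKO array 40.3% of probes were well above background, against 40.6% on the control array. The 75th percentile that set the scale was 106 intensity units on the CKO and 105 on the control array.

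The co-receptors matched the labelled cell type. Cd8a, a chain of the CD8 co-receptor, stood at 4.60 on the CKO and 4.86 on the control array, and its partner Cd8b1 stood at 5.46 on the CKO and 5.37 on the control array. Cd4 stood at 3.14 on the CKO and 3.15 on the control array, below the 6.19 to 6.54 of the DP and CD4SP arrays. Cd3e, an invariant chain of the T cell receptor complex, stood at 8.79 on the CKO and 8.23 on the control array. Brd1 itself, read by 1 probe, stood at -0.73 on the CKO and -1.34 on the control array. The position of that probe relative to the floxed part of the gene is not given in the sources used here, so it checks nothing about the deletion.

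The OT-I arrays stood apart from the other 7 in sex-linked transcripts. Xist, the RNA of the inactive X chromosome, was at 2.20 on the OT-I CKO and 1.78 on the OT-I control array, and was not well above background on any other array. The Y-linked genes Ddx3y, Eif2s3y and Uty were well above background on all of the other 7 arrays and on neither OT-I array. Within the OT-I pair both arrays therefore had the same pattern. In every comparison of the OT-I arrays with the others below, the OT-I transgene, the age and the sex-linked transcripts differ together and cannot be told apart, and of the other 7 arrays only that of CD8SP CKO cells lay on the slide of the OT-I pair.

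**Figure D1:**
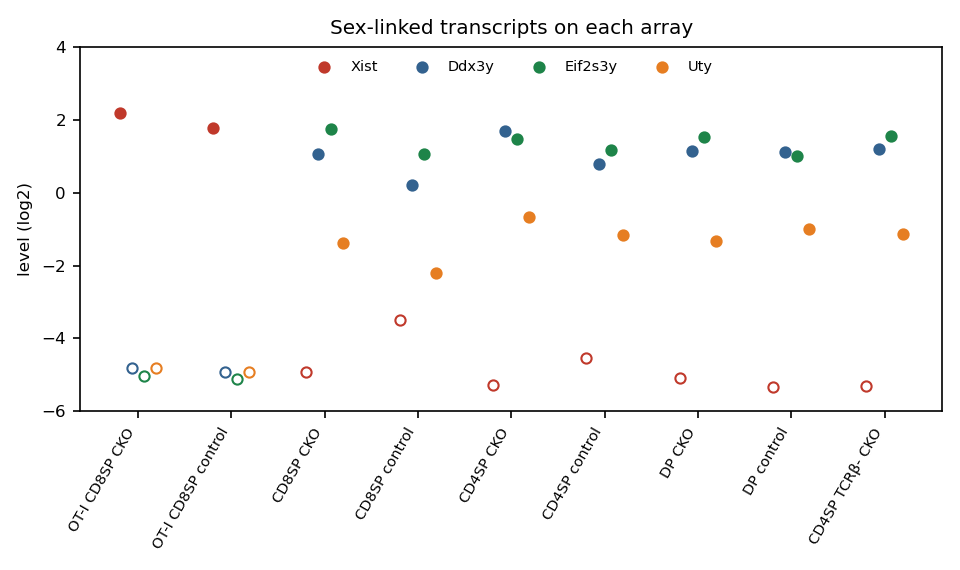
Log2 level (vertical axis, relative to the 75th percentile of each array) of Xist and of the Y-linked genes Ddx3y, Eif2s3y and Uty on each of the 9 arrays (horizontal axis). Filled points were well above background and open points were not; Xist is filled on the 2 OT-I arrays alone, and the 3 Y-linked genes are filled on the other 7.

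More transcripts were lower than higher in OT-I CKO cells. Of the 18623 compared, 1616 were more than 2-fold higher (8.68%) and 2563 were more than 2-fold lower (13.8%). Past 4-fold the counts were 261 higher and 750 lower, and past 8-fold 51 higher and 261 lower. The median over all genes compared was -0.08. Of the genes past 2-fold, 38.7% were higher in the CKO on this scale. That share was 61.3% when arrays were scaled on the probes detected on all arrays, which raises the median of all genes by 0.27, and 27.8% after normexp background correction. None of the 4179 genes past 2-fold changed direction after normexp correction, and 13 did with the mean over the probes of a symbol. Of 627 symbols past 2-fold with more than 1 compared probe, all probes lay on the same side of 0 for 603 (96.2%). The differences in the OT-I pair also had the widest spread of the 4 pairs, with an SD of 0.91 among genes detected on both arrays, against 0.70 in the CD8SP, 0.56 in the CD4SP and 0.58 in the DP pair. That spread was not tested.

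**Figure D2:**
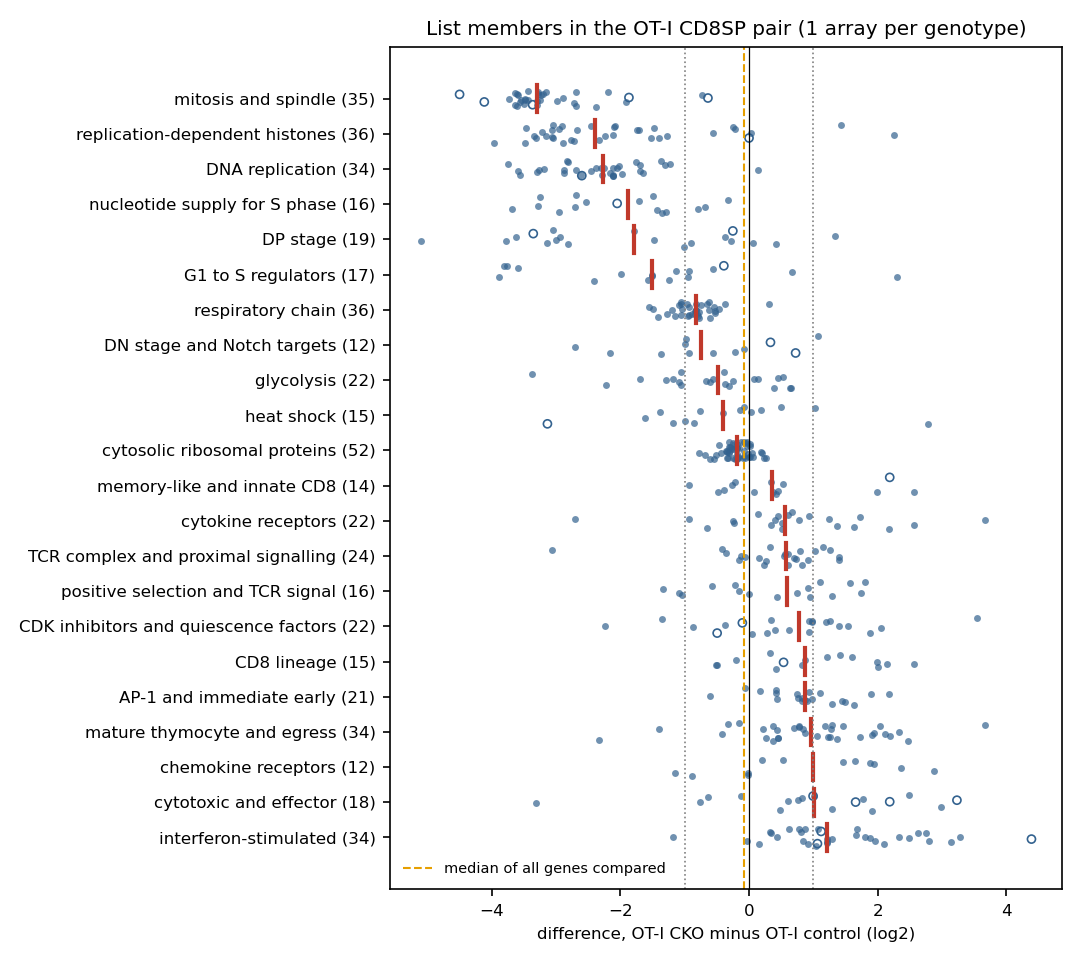
Difference between the OT-I CKO and OT-I control arrays (horizontal axis, log2) for each compared member of 22 gene lists (rows, with the number compared in parentheses). Red bars are list medians, open circles are bounds, dotted lines mark 2-fold and the dashed line is the median of all genes compared (-0.08); the medians run from -3.30 for mitosis and spindle genes to 1.21 for interferon-stimulated genes.

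Cell division transcripts made up the lists farthest below the other genes. In a bulk sample, fewer cells of a stage and less RNA per cell cannot be told apart. Of 35 compared genes of mitosis and the spindle, 33 were more than 2-fold lower in OT-I CKO cells and none was higher. Their median difference was -3.30, against -0.16 for all named genes. Birc5, which encodes survivin of the chromosomal passenger complex, stood at 4.43 in the CKO and 8.03 in the control, a difference of -3.61. Plk1, a mitotic kinase, stood at 3.06 in the CKO and 6.80 in the control, a difference of -3.74. The cyclins Ccna2 and Ccnb1 stood at 1.95 and 2.08 in the CKO, against 5.59 and 5.72 in the control. The proliferation marker Mki67 stood at 2.26 in the CKO and 5.16 in the control. All 5 of these were therefore well measured on both arrays and lower in the CKO by 2.90 to 3.74. The centrosomal kinase Nek2 and the microtubule depolymerase Kif2c were not well above background in the CKO and stood at 1.66 and 1.28 in the control, so they were at least 22.7-fold and 17.4-fold lower in the CKO. The other 2 were Kif23, which was lower by 0.72, and Ttk, which was not well above background in the CKO and has a bound of -0.64.

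The DNA replication list had the same direction. Of its 34 genes, 33 were more than 2-fold lower and the median was -2.27. Mcm10, a factor that activates the replicative helicase, stood at 1.37 in the CKO and 5.11 in the control, a difference of -3.75. Cdc6, which loads that helicase onto origins, stood at -0.83 in the CKO and 2.76 in the control, a difference of -3.59. Uhrf1, which carries DNA methylation through replication, stood at 4.46 in the CKO and 7.76 in the control. The helicase subunits Mcm2 to Mcm7 were lower by 1.76 (Mcm4) to 2.62 (Mcm5), and the sliding clamp Pcna by 2.11. Gins3, a GINS subunit, was the exception at 0.15. Of 16 genes that supply nucleotides for S phase, 13 were more than 2-fold lower and none was higher, with a median of -1.88. The ribonucleotide reductase subunit Rrm2 stood at 3.43 in the CKO and 7.12 in the control, and thymidine kinase Tk1 stood at 2.50 in the CKO and 5.76 in the control.

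Replication-dependent histone genes, which are transcribed in S phase, followed. Of 36 compared, 29 were more than 2-fold lower and 2 were higher, with a median of -2.40. The linker histone gene H1f5 stood at 5.24 in the CKO and 9.21 in the control, a difference of -3.97, and H4c11 stood at 4.07 in the CKO and 7.39 in the control. H3c15 (2.26) and H2ac18 (1.44) were the 2 that were higher in the CKO. Core histone genes are near-identical copies, so a probe named for one may read others.

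Regulators of entry into S phase were mostly lower. Of 17, 11 were more than 2-fold lower and 1 was higher, with a median of -1.50. The transcription factors E2f1, E2f2, E2f7 and E2f8 were lower by 2.41, 3.81, 3.59 and 3.89, although the other compared probe of E2f7 gave 0.16. Mybl2, the MYB-family activator of mitotic genes, stood at 1.94 in the CKO and 5.70 in the control. Ccnd2, a D-type cyclin that responds to cytokines and receptor signals, stood at 5.98 in the CKO and 3.67 in the control, a difference of 2.31 in the opposite direction, while the other D-type cyclins Ccnd1 and Ccnd3 differed by 0.66 and -0.94. Among 22 inhibitors of cyclin-dependent kinases and factors of quiescence, 7 were more than 2-fold higher and 2 lower, with a median of 0.77. The Schlafen genes Slfn1 and Slfn2, known for T cell quiescence in mice, stood at 1.15 and 5.54 in the CKO, against -2.40 and 3.48 in the control. Foxp1, Tsc22d3 and Pik3ip1 were higher by 1.40, 1.89 and 1.54. The kinase inhibitors Cdkn2c (-2.24) and Cdkn1c (-1.35) were lower.

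Promoters of the mitotic and replication genes are shown because these lists, among the farthest below the other genes, also share sequence elements. Windows ran from 250 bases before to 50 after each RefSeq start (GRCm38.p6), and letters were searched on both strands. Of 30 windows of the mitosis list, found for 28 of its 35 genes, 80.0% held a cell cycle homology region (CHR; TTTGAA or TTCGAA), against 19.2% of all 32851 windows in the table and 14.3% of windows of the genes compared. A CCAAT box (CCAAT) stood in 80.0% of them, against 37.4% of all windows, and both elements stood in 70.0%, against 7.53%. An E2F motif (TTT, then 2 letters C or G, then CGC) stood in 40.5% of 37 windows of 29 replication genes, against 2.27% of all windows and 3.33% of the mitosis windows. Below are the mitosis genes with both elements and the largest differences, Plk1 (chr7:122159185-122159484, plus strand) and Cdk1 (chr10:69352863-69353162, minus strand), with both elements in capitals, and the replication gene with the largest difference that holds the E2F motif, Cdc6 (chr11:98907901-98908200, plus strand), with that motif in capitals. The Cdk1 window holds 2 CHR and 3 CCAAT matches, and the other windows hold 1 match of each element shown. The Cdk1 window also holds 1 E2F match, left in lower case, and it is the 1 mitosis window with that motif. A match is a description of the letters alone.
Plk1: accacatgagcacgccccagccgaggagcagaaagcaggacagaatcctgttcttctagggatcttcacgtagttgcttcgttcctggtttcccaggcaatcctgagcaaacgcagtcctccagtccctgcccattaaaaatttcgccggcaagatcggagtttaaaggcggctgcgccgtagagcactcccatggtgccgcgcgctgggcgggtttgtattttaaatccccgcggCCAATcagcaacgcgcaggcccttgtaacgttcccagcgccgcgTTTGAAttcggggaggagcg
Cdk1: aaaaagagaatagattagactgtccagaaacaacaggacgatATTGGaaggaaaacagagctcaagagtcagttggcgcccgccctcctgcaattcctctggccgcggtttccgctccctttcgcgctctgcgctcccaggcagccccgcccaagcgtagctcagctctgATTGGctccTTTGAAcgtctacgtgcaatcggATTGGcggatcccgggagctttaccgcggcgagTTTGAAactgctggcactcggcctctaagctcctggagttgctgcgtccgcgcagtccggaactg
Cdc6: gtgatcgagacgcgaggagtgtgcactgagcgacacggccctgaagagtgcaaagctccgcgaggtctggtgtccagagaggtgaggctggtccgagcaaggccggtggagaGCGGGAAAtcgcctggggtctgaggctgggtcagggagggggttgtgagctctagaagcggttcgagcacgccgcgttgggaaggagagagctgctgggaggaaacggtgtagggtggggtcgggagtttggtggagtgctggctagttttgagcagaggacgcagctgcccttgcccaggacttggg
Cdk1, the kinase that drives mitosis, was lower in the CKO by 3.60.

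On the other arrays the levels of these lists showed where each member of the pair stood. The median level of the mitosis list was 0.70 on the OT-I CKO array and 4.05 on the OT-I control array. It was 2.54 in CD8SP CKO and 3.68 in CD8SP control cells, 1.43 in CD4SP CKO and 1.02 in CD4SP control cells, and 3.38 in DP CKO and 3.25 in DP control cells. The OT-I CKO array thus had the lowest value of the 9, below the CD4SP arrays, and the OT-I control array had the highest, next to 4.05 in TCRβ-negative CKO cells. The replication list stood at 2.94 in OT-I CKO and 5.38 in OT-I control cells, against 3.84 in CD8SP CKO and 5.17 in CD8SP control cells. Member by member, OT-I CKO cells differed from CD8SP CKO cells by a median of -1.88 for mitosis and -1.02 for replication, and OT-I control cells differed from CD8SP control cells by 0.29 and 0.10.

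**Figure D3:**
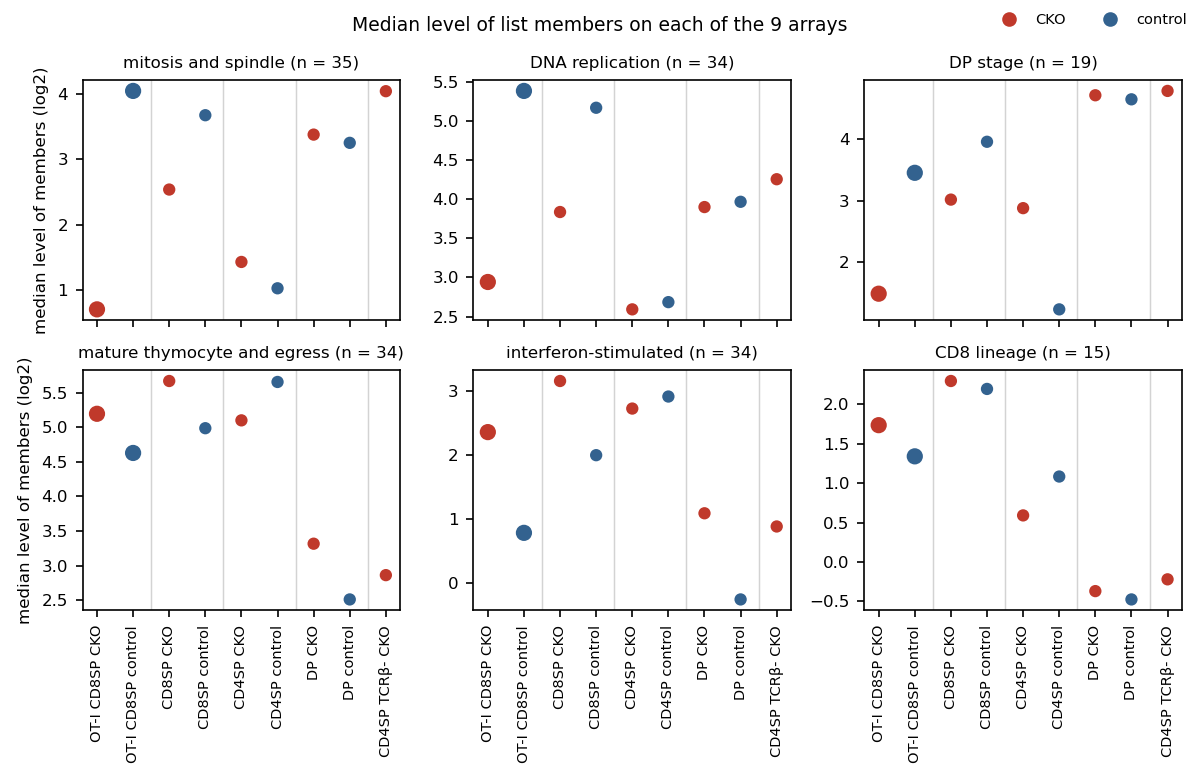
Median log2 level (vertical axis) of the members of 6 gene lists on each of the 9 arrays (horizontal axis), with CKO arrays in red, control arrays in blue and the OT-I arrays as larger points. The vertical axes have different ranges and do not start at 0; in the mitosis list the OT-I CKO array is lowest at 0.70 and in the DP stage list it is at 1.49, between the CD4SP CKO and CD4SP control arrays.

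Transcripts of immature thymocytes were also lower in OT-I CKO cells. Of 19 genes of the DP stage, 12 were more than 2-fold lower and 1 was higher, with a median of -1.79. Ptcra, the surrogate alpha chain of the pre-T cell receptor, stood at -1.85 in the CKO and 3.26 in the control, a difference of -5.11. The recombinase gene Rag1 stood at -1.21 in the CKO and 1.94 in the control. Its partner Rag2 was not well above background in the CKO and stood at 0.51 in the control, at least 10.2-fold lower in the CKO, although the mean over its probes gave a difference of -0.88. Dntt, which adds bases at receptor joints, was lower by 3.00. The DP markers Endou and Aqp11 stood at 2.60 and 1.49 in the CKO, against 6.23 and 5.27 in the control. Tdrd5 was the member more than 2-fold higher (1.33), and Satb1, a chromatin organiser of the DP stage, was at 0.06. Of 12 genes of the double-negative stage and Notch targets, 3 were lower (Il2ra, Myb and Gata3, by 2.71, 2.16 and 1.36) and 1 was higher (Dtx1, 1.07). Syk, the kinase of pre-T cell receptor signalling, stood at -1.72 in the CKO and 1.34 in the control.

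Markers of DP and immature single-positive cells, which a CD8 gate can hold, are given beside these lists. Cd24a, high on cells before full maturation, stood at 4.30 in OT-I CKO and 5.31 in OT-I control cells, and at 4.52 in CD8SP CKO and 5.23 in CD8SP control cells. Ptcra stood at 3.26 in OT-I control and 3.84 in DP control cells. Cd4, which a DP cell carries and an immature single-positive cell carries little of, was within 0.02 between the OT-I arrays by its brightest probe and lower in the CKO by 0.48 by its other compared probe. The part of immature cells in the results was not tested.

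Transcripts of mature thymocytes were higher in OT-I CKO cells. Of 34 genes of maturation and egress, 17 were more than 2-fold higher and 2 lower, with a median of 0.96. Il7r, the interleukin 7 receptor that supports survival of mature cells, stood at 4.00 in the CKO and 0.33 in the control, a difference of 3.67. S1pr1, the receptor for the lipid that draws cells out of the thymus, stood at 4.70 in the CKO and 2.75 in the control. The chemokine receptor Ccr7 was higher by 1.47 and Klf2, the transcription factor upstream of S1pr1, by 1.26. Gimap3, a GTPase of lymphocyte survival, stood at 6.63 in the CKO and 4.30 in the control, while Gimap8 and Gimap4 were higher by 1.27 and 1.29, and the other 5 Gimap genes of the list lay between -0.33 and 0.86. The galectin gene Lgals1 (5.81 in the CKO, 8.15 in the control) and Crip1 (8.76 in the CKO, 10.16 in the control) were the 2 lower members. Of 12 chemokine and egress receptors, 6 were more than 2-fold higher and 1 (Ccr4, -1.14) lower. Gpr183, an oxysterol receptor, stood at 0.62 in the CKO and -2.26 in the control.

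Genes of the CD8 lineage went the same way without an exception past 2-fold. Of 15 compared, 7 were more than 2-fold higher and none was lower, with a median of 0.87. The interleukin 2 and 15 receptor chain Il2rb stood at 4.87 in the CKO and 2.30 in the control. Nkg7, a protein of cytotoxic granules, stood at 8.56 in the CKO and 6.56 in the control. The T-box factor Eomes stood at -0.04 in the CKO and -2.03 in the control. Runx3, the factor that silences Cd4 in CD8 cells, was higher by 0.87, short of 2-fold. Of 14 genes of memory-like and innate CD8 cells, 3 were higher (Il2rb, Fasl and Eomes) and none was lower, with a median of 0.36.

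Effector transcripts were higher with 1 large exception. Of 18, 9 were more than 2-fold higher and 1 was lower, with a median of 1.01. The interferon gamma gene Ifng stood at 0.06 in the CKO and -2.92 in the control. The chemokine gene Ccl5 stood at 6.82 in the CKO and 4.90 in the control, and Ccl4 at 3.06 in the CKO and 0.57 in the control. Ccl3 was well above background in the CKO alone (0.19), at least 9.41-fold higher. Gzma, a granzyme, stood at 6.32 in the CKO and 9.62 in the control, a difference of -3.31. The OT-I control array had the highest Gzma level of the 9, and the CD8SP arrays stood at 7.57 in the CKO and 7.82 in the control.

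T cell receptor components differed less. Of 24 genes of the receptor complex and its proximal signalling, 5 were more than 2-fold higher, among them Fyn, Ptprc, Ptpn22 and Ubash3a, and only Syk was lower, with a median of 0.58. Of 16 genes of positive selection and receptor signal, 5 were higher and 3 lower, with a median of 0.60. Cd69, the early activation antigen of selected cells, stood at 3.73 in the CKO and 1.98 in the control, and Egr2, a transcription factor induced by the receptor, at 3.16 in the CKO and 1.36 in the control. Cd5, whose surface level follows the strength of selection, was within 0.13 (7.81 in the CKO and 7.93 in the control). Of 21 immediate early genes, 7 were higher and none was lower, with a median of 0.88. The AP-1 members Junb and Fosl2 were higher by 1.64 and 2.18. The transgenic receptor itself was not read: none of the 18 listed alpha and beta segments was among the named probes.

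Interferon-stimulated genes had the highest median of the lists other than cell type markers. Of 34, 22 were more than 2-fold higher in OT-I CKO cells and 1 was lower, with a median of 1.21. Ifi27l2a stood at 7.49 in the CKO and 4.22 in the control. The oligoadenylate synthetases Oas1a, Oas2 and Oas3, which sense double-stranded RNA, stood at 3.97, 1.29 and 0.39 in the CKO, against 0.82, -1.47 and -2.41 in the control. Irf7, a factor that amplifies the response, was higher by 1.97 and Isg15, a ubiquitin-like modifier, by 1.22. Ifi214, of a family of DNA-binding proteins, was well above background in the CKO alone (1.35) and at least 21.0-fold higher. Ifit2 was lower by 1.18. The list stood at a median level of 2.35 in OT-I CKO and 0.78 in OT-I control cells, against 3.15 in CD8SP CKO and 1.99 in CD8SP control cells, and 2.72 in CD4SP CKO and 2.91 in CD4SP control cells.

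An interferon-stimulated response element core (GAAA, any 2 letters, GAAA) stood in 56.3% of 32 promoter windows of 25 interferon-stimulated genes, against 3.44% of all windows. The window of Ifi214 (chr1:173535908-173536207, minus strand, GRCm38.p6), the member with the largest difference among those that hold the core, follows with the core in capitals.
Ifi214: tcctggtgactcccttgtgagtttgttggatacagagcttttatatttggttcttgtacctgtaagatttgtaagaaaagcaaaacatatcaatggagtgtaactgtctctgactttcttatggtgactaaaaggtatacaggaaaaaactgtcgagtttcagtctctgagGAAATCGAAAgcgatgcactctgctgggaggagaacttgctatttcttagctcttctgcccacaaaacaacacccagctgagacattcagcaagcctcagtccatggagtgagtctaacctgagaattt

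Heat shock genes were split. Of 15, 2 were more than 2-fold higher and 4 lower, with a median of -0.40. Hspa1a, the inducible Hsp70, stood at 4.54 in the CKO and 1.75 in the control, a difference of 2.79. It differed in the opposite direction in the other pairs, with -1.99 in CD8SP, -3.06 in CD4SP and -2.32 in DP cells. Bag3, the co-chaperone of Hsp70, was not well above background in the CKO and stood at 0.29 in the control, at least 8.79-fold lower in the CKO. The mitochondrial chaperonin Hspd1 stood at 4.91 in the CKO and 6.53 in the control.

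Genes of energy metabolism were lower by smaller amounts. Of 36 respiratory chain genes, 35 lay below 0 and 11 were more than 2-fold lower, with a median of -0.83. Cox7a2 stood at 6.53 in the CKO and 8.10 in the control, and Atp5b at 8.40 in the CKO and 9.67 in the control. Of 22 glycolysis genes, 8 were more than 2-fold lower and none was higher, with a median of -0.48. Ldhb, a lactate dehydrogenase, stood at 1.93 in the CKO and 5.30 in the control, and Tpi1 at 4.29 in the CKO and 6.52 in the control. Of 52 cytosolic ribosomal protein genes, none was past 2-fold, and their median of -0.19 was 0.09 under the scaling on probes detected on all arrays, so its sign depends on the scale. Of 22 cytokine receptor genes, 7 were higher and 1 (Il2ra) lower. Of 13 genes of the Bcl2 family, 2 were higher and 3 lower, and of 14 p53 targets, 4 were lower. One of those 4, Gtse1 (-3.55), also peaks in G2 phase, and the death receptor Fas was lower by 1.93.

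Markers of other cell types were checked beside these lists. None of the 13 compared myeloid and dendritic markers was past 2-fold. Their summed level was 907 in the CKO and 763 in the control (linear scale, in units of the 75th percentile). Of these, 12 were well above background in the CKO and 13 in the control. Siglech stood at 8.91 in the CKO and 8.45 in the control, H2-Ab1 at 7.07 and 7.01, and Csf1r at 4.18 and 4.31. Lyz2, Adgre1, C1qa and C1qc were below background on both arrays. Below background on both arrays were 6 of the 12 B cell markers, Cd79a, Ms4a1 and Pax5 among them. So were 6 of 9 NK and NKT markers (with Ncr1 and Klrb1c) and 11 of 14 of stroma and epithelium (with Epcam and Foxn1). Cd79b stood at 1.79 in the CKO and 2.43 in the control, and Blnk, Cd22 and Jchain were also well above background on both. So were Zbtb16, Il12rb2, Col1a2 and Pecam1, while Pdgfrb was so in the control alone (0.22). All 7 compared erythroid markers were higher in the CKO and 4 were past 2-fold, with Hbb-b2 at 2.40 in the CKO and 0.24 in the control. Their summed level was 94.5 in OT-I CKO and 51.9 in OT-I control cells, and 25.8 to 80.1 on the other arrays, while Alas2 and Klf1 were below background on both OT-I arrays. The part of red cell RNA in the result was not tested. All 4 compared gamma delta T cell markers were lower, with a summed level of 11.3 in the CKO and 44.9 in the control. Among them, Blk is shared with B cells. Cd163l1, a scavenger receptor of gamma delta T cells, stood at 3.01 in OT-I CKO and 5.06 in OT-I control cells and at or below -0.62 on every other array, while Il17a and Il23r were below background on both OT-I arrays. The part of gamma delta T cells in the result, that of Gzma included, was not tested.

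**Figure D4:**
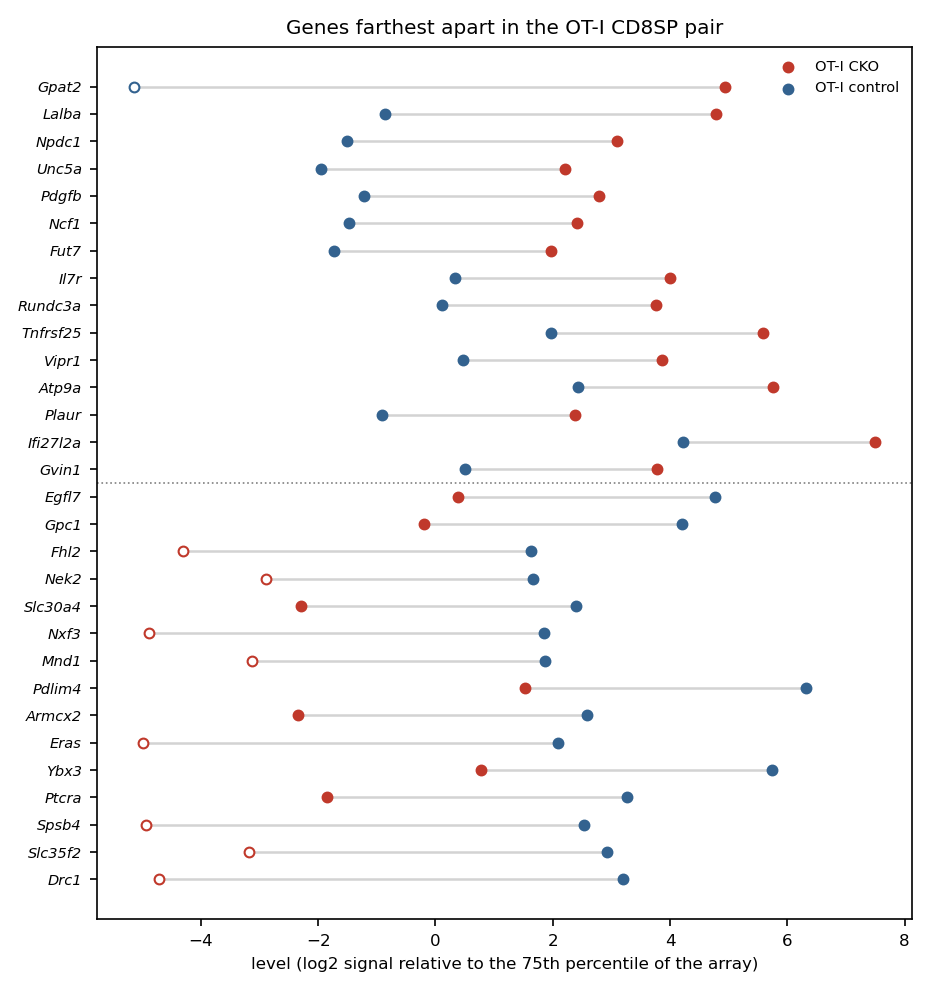
Levels (horizontal axis, log2 relative to the 75th percentile) of the 15 named genes farthest higher (above the dotted line) and the 15 farthest lower (below it) in OT-I CKO cells, among genes of at least median brightness. Red points are the OT-I CKO array, blue points the OT-I control array, and open points were not well above background; Gpat2 stands at 4.94 in the CKO and -5.15 in the control.

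Of the named genes farthest apart, Il7r, Fut7, Ifi27l2a, Ptcra and Nek2 belonged to these lists. Gpat2, a mitochondrial acyltransferase known from the germ line, stood at 4.94 in OT-I CKO cells and was not well above background in OT-I controls, at least 254-fold higher, and it was no more than -3.01 on each of the other 7 arrays. Its value rests on 1 probe. Lalba, the milk protein alpha-lactalbumin, stood at 4.79 in the CKO and -0.86 in the control, a difference of 5.65, and was higher by 3.75 to 4.07 in the other pairs. Npdc1, Unc5a, a netrin receptor, and Pdgfb, a growth factor, were higher by 4.60, 4.17 and 4.02. Ncf1, a subunit of the phagocyte oxidase, stood at 2.41 in the CKO and -1.47 in the control, and the fucosyltransferase Fut7, which makes selectin ligands, at 1.97 in the CKO and -1.73 in the control. Tnfrsf25, a death domain receptor of T cells, stood at 5.58 in the CKO and 1.98 in the control, and Vipr1, the receptor of vasoactive intestinal peptide, at 3.86 in the CKO and 0.48 in the control. Atp9a was higher by 3.33 by its brightest probe and by 0.38 by its other compared probe.

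At the low end, Drc1, a subunit of the dynein regulatory complex of cilia, was not well above background in the CKO and stood at 3.20 in the control, at least 65.9-fold lower in the CKO. Slc35f2, Spsb4 and Eras, a Ras-like gene, were likewise not well above background in the CKO and at least 54.3-fold, 41.3-fold and 30.6-fold lower. Spsb4 stood at 2.53 in the OT-I control, and its highest level on any other array, the other controls included, was -4.82. Eras stood at 2.09 in the OT-I control and at 0.58 in CD4SP CKO cells, and its highest level on the remaining arrays was -4.78. The values of Spsb4 and Eras each rest on 1 probe. Ybx3, a cold shock domain protein, stood at 0.78 in the CKO and 5.74 in the control. Pdlim4, a LIM domain protein, stood at 1.52 in the CKO and 6.32 in the control, and Egfl7 at 0.38 in the CKO and 4.76 in the control. The heparan sulfate proteoglycan Gpc1 stood at -0.20 in the CKO and 4.20 in the control and was also lower in the other pairs, by 2.55 to 3.66. Drc1 was lower in those pairs too, with -3.61 in CD8SP, a bound of -4.62 in CD4SP and -2.89 in DP cells. Slc35f2 differed by -1.73 in CD8SP, -1.41 in CD4SP and -0.14 in DP cells. Pdlim4 differed in either direction there, by 0.90 in CD8SP, -1.21 in CD4SP and 1.94 in DP cells.

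The CD8SP pair from mice without OT-I gave a second set of 2 arrays with no array in common, although its CKO and control arrays lay on different slides. Over the 17594 genes compared in both pairs, the differences had a Pearson r of 0.65 and a Spearman rho of 0.67, a description across genes, which share arrays and are not independent. Of the genes more than 2-fold higher in the OT-I pair, 583 were also so in the CD8SP pair, which is 36.1% of the OT-I list and 46.5% of the CD8SP list. Of those lower, 990 were shared, 38.6% of the OT-I list and 52.8% of the CD8SP list. Past 2-fold in opposite directions were 29 genes higher and 27 genes lower in the OT-I pair. The shared lower genes had a median of -2.03 in the OT-I and -1.37 in the CD8SP pair, and the shared higher genes one of 1.51 in the OT-I and 1.40 in the CD8SP pair.

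The lists differed in how far the pairs stood from each other. The mitosis list had a median of -3.30 with OT-I and -1.13 in CD8SP cells without it, and 33 of its genes were more than 2-fold lower with OT-I and 21 without it. The DP stage list had medians of -1.79 with OT-I and -0.71 without it. The maturation list had a median of 0.96 in each pair, with 17 genes higher in each, and the interferon list had medians of 1.21 with OT-I and 0.91 without it. Il2ra, the alpha chain of the interleukin 2 receptor, stood at -2.71 among OT-I cells and at a bound of 1.52 among cells without OT-I. The mitosis median was 0.39 in the CD4SP and -0.14 in the DP pair, and the interferon median was 0.14 in the CD4SP and 0.52 in the DP pair.

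**Figure D5:**
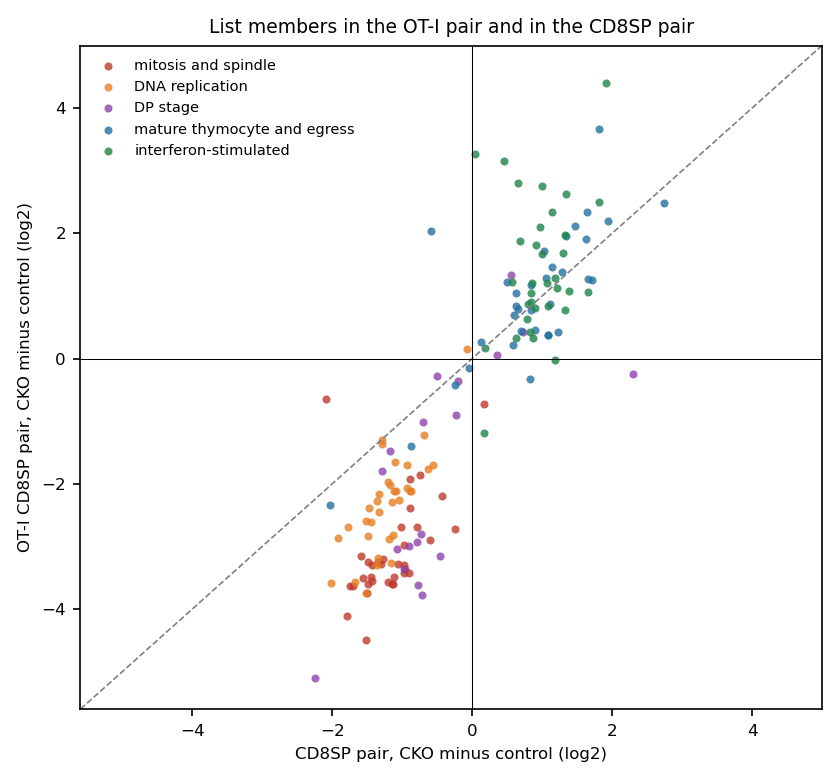
Difference between CKO and control (log2) in the CD8SP pair (horizontal axis) and in the OT-I CD8SP pair (vertical axis) for the members of 5 gene lists, 1 point per gene. The dashed line marks equal differences; most mitosis and replication genes lie below it in the lower left, with medians of -3.30 and -2.27 in the OT-I pair.

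Whether the genotype difference of the OT-I pair departed from that of the other 3 pairs was tested with limma. The test was a genotype-by-OT-I term over all 9 arrays with 2 residual degrees of freedom. Its residual error was taken from how far those 3 pairs disagreed with each other, as a lone OT-I pair shows no spread. For each gene limma moderated that error towards a value pooled over all genes. The prior degrees of freedom of that pooled value were 3.69, and 30.5 without the CD4SP pair. Of 20284 genes and transcripts tested, 0 (0.0%) had an adjusted p (Benjamini-Hochberg, two-sided) below 0.05, and 1685 (8.31%) had an unadjusted p below 0.05. The smallest adjusted p was that of Gpat2, 0.0527, with an estimate of 10.68 (SE 0.57). Hspa1a had an estimate of 5.25 (SE 0.60, adjusted p = 0.343), Plk1 one of -3.32 (SE 0.81, adjusted p = 0.373) and Ptcra one of -4.03 (SE 0.93, adjusted p = 0.366). Unadjusted p-values below 0.05 were found for 33 of the 35 mitosis genes and 24 of the 34 replication genes, beside the 8.31% of all genes. These lists were chosen with these results known and their members were read on the same arrays, so the counts are no test of a list. A difference between the OT-I pair and the other pairs was therefore not shown for any single gene. The number of calls depended on the model, with 62 higher and 117 lower without the CD4SP pair, 2 and 2 without the CD8SP pair, and 0 without the DP pair.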

How the data were processed

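Per the file headers, the authors' scanner files came from Agilent Feature Extraction 10.7.1.1, which gives the processed signal of each spot as a background-subtracted, detrended intensity, with no scaling between arrays. The labels name a biotin protocol, whereas the files are those of Cy3 arrays. The deposited series table holds the same intensity after division by each array's own 75th percentile.

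Spots of a probe were averaged on the log2 scale, control and outlier spots were left out, and each array was set to its 75th percentile. None of the spots was saturated. RefSeq accessions (GRCm38.p6) named 26715 probes with 20258 symbols, and the brightest probe stood for a symbol. With 1 array per genotype the number of arrays limits the precision, and the pair was described without a test. The genotype-by-OT-I term was fitted with limma 3.58.1 in R 4.3.3 over genes detected on at least 2 arrays. The same model was also run on simulated data whose spread was taken from the real fit. The residual error of the genotype-by-OT-I term rests on how unequal the CKO-minus-control differences of the DP, CD4SP and CD8SP pairs were. It was then moderated across genes by limma. The OT-I pair adds nothing to that error and was assumed to vary likewise. Whether the arrays come from different mice is not given in the sources used here. The p-values therefore do not measure spread between mice, and cell stage and technical variation cannot be told apart in that error. The files hold no mean spot signal, so normexp used the median signal, with offset 50. The 38 gene lists of the text and the pair itself were chosen with earlier results of these data known. Named were Brd1, the co-receptors, the 15 genes farthest apart in each direction among those of at least median brightness, and up to 6 genes per list and 3 against its direction, besides members named to describe a list. A few members that this rule names are not reported here. Alternatives changed the background correction, scaling, filter, fold threshold, probe rule and the pairs in the fit.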

Additional observations from a re-analysis of the deposited data

Results flagged for a closer look

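Hspa1a was higher by 2.79 in the OT-I pair and lower by more than 2-fold in each of the other 3 pairs, the opposite direction. The limma test of that difference did not pass (adjusted p = 0.343).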

How the results depend on the processing

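With 1 array per genotype no replicate could be left out of the pair. The counts of genes more than 2-fold higher and lower (1616 and 2563) moved to 633 and 1646 after normexp correction, 2854 and 3858 with no filter on dim probes, 3541 and 4714 at 1.5-fold, and 261 and 750 at 4-fold. The count of higher genes moved to 2758 when arrays were scaled on probes detected on all arrays, with 1738 lower. Quantile normalization gave 1843 and 1972, and the deposited values of the series 1608 and 2578. The median of the DP stage list was -1.09 with the mean over the probes of a symbol. The medians of 11 lists near 0 changed sign under some setting, among them the co-receptors, CD4 lineage, Bcl2 family and ribosomal proteins; those of mitosis, replication, histones, DP stage, maturation, CD8 lineage and interferon genes did not. The genotype-by-OT-I term called 3 higher and 6 lower after normexp, 27 and 37 with no filter, 3 and 10 with a variance trend, 62 and 117 without the CD4SP pair and 2 and 2 without the CD8SP pair, against 0 and 0 otherwise. Of 174 named genes past 2-fold, 32 were not past it under at least 1 setting, among them Jade1, Ikzf1, Rag2, Eomes, Fasl, Tdrd5, Cdkn1c, Ccr4, Ubash3a, Ifit2, Gcnt1, Atp5b and Cox7a2. The cause of these shifts was not tested. No paired analysis was possible within the OT-I pair because each genotype has 1 array there, and the genotype-by-OT-I fit already sets CKO against control within each population.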

Other observations

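Genes that neighbour Brd1 were counted in windows of different width. Of the 50 compared genes nearest to Brd1 in the order along chromosome 15, 25 on each side, 3 (6.0%) were higher past 2-fold in OT-I CKO cells and 8 (16.0%) were lower, against 7.71% and 16.0% of all named genes. With 50 compared genes on each side, 6 of 100 were higher and 24 were lower, with a median of -0.41, against -0.16 for all named genes. Among the nearest 50, Fbln1, an extracellular matrix protein, was lower in all 4 pairs, by 2.10 in the OT-I pair and, where it was below background in the CKO, by bounds of 3.20 in the CD8SP, 3.48 in the CD4SP and 2.26 in the DP pair. On the X chromosome, 5.82% of compared genes were higher and 17.7% lower.

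Genes of histone acetyltransferase complexes listed beside Brd1, not all of them partners of Brd1 in a complex, lay between -1.01 and 0.68. Of 10 compared, 1 was more than 2-fold lower (Jade1, which recruits the acetyltransferase Kat7 to chromatin, -1.01) and none was higher, with a median of -0.29. Glycosyltransferases of maturation differed one by one. Fut7 was higher by 3.70 and St3gal1, which sialylates core O-glycans of mature CD8 cells, by 1.36, whereas Gcnt1, which branches those glycans, was below background in the CKO and at least 5.00-fold lower.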
